A study of Drosophila melanogaster with 2 samples.

Results

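The chemosensory receptor genes of Drosophila melanogaster were examined for peaks of the transcription factor Fer3 in whole embryos. They were taken by symbol from the protein-coding genes of the Ensembl annotation of dm6, as every odorant receptor (Or), gustatory receptor (Gr) or ionotropic receptor (Ir) symbol that goes on with a digit, plus Orco. The rule found 180 of 13968 protein-coding genes, 60 in each family, with Orco counted among the odorant receptors. By symbol alone, 7 further genes of these families are annotated as pseudogenes and were set aside. The embryos were aged 6 to 24 h and came from a transgenic line, labelled as an insertion targeting Fer3, that expresses Fer3 with a C-terminal GFP tag. This age is the one in the sample descriptions, and a separate age field, with a value far beyond embryonic development, was not used. Chromatin sonicated to 200 to 800 bp was precipitated with an antibody against GFP. The 2 samples are biological replicates 1 and 2 of this 1 group, both carry the tagged protein, and no other genotype, age or treatment is analysed here. The chromatin came from whole embryos, so cells that use receptor genes and cells that do not cannot be told apart.

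Odorant receptors form ligand-gated cation channels, in which a tuning subunit is joined by the shared co-receptor Orco. Gustatory receptors are a related family that detects sugars, bitter compounds and, in a pair of members, carbon dioxide. Ionotropic receptors derive from ionotropic glutamate receptors and detect acids, amines, temperature and humidity together with broadly used co-receptors. Each family acts mainly in sensory neurons of the antenna, maxillary palp, labellum and legs of the adult and of the dorsal and terminal organs of the larva, and the larval neurons form during late embryogenesis. Fer3 is a basic helix-loop-helix factor, a class that binds E-boxes, which are sites of the form CANNTG.

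The authors deposited 4 peak lists. Replicate 1, replicate 2 and the pooled alignments have a list of 30000 peaks each. The last list, of 5636 peaks that passed an irreproducible discovery rate (IDR) threshold and here called the reproducible list, was identical to the 5636 pooled peaks of highest signal value, so that its ranks are ranks of the pooled list. The signal value and the −log10 q of each peak are the authors' own, and the scale of the signal value is not given in the sources used here. No list holds read counts, so sequencing depth is unknown, and the intervals given below are exact Clopper-Pearson 95% intervals that cover counting error over genes or peaks only. A peak was counted for a gene when its summit lay within 1 kb of an annotated 5′ end of one of its protein-coding transcripts, here a start.

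Few receptor genes had a reproducible peak, and in all but 1 case that peak lay nearer to the start of another gene. A reproducible summit lay within 1 kb of a start in 6 of 180 receptor genes (3.33%, 95% interval 1.23 to 7.11), against 26.2% of all protein-coding genes. They were 3 of 60 odorant receptors (Orco, Or88a and Or9a), 2 of 60 gustatory receptors (Gr32a and Gr64a) and 1 of 60 ionotropic receptors (Ir60e). The intervals of the family shares (%) overlapped, at 1.04 to 13.9 for odorant, 0.406 to 11.5 for gustatory and 0.0422 to 8.94 for ionotropic receptors. A summit between close neighbours counts for both, so each summit was also given to the gene with the nearest protein-coding start alone. Orco alone among the receptors then held a reproducible summit within 1 kb (1 of 180, 0.556%, interval 0.0141 to 3.06), against 19.2% of all protein-coding genes. Of the 6 receptor genes with a reproducible summit within 1 kb, 1 held the nearest start (16.7%, interval 0.421 to 64.1), against 73.3% of the 3664 protein-coding genes with one (71.8 to 74.7). The lists with lower peaks differed from this. The same receptor share was 71.4% in the pooled, 81.8% in the replicate 1 and 63.6% in the replicate 2 list. Over all protein-coding genes it was 83.3%, 83.0% and 84.5% in the same order.

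**Figure D1:**
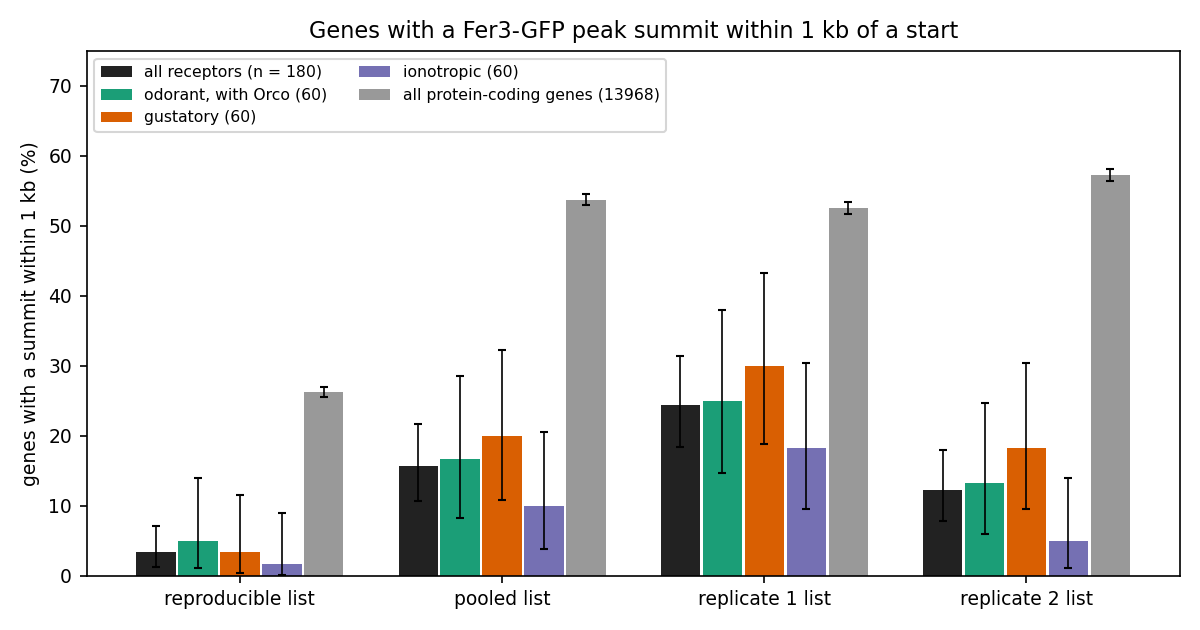
Share of genes with a summit within 1 kb of a start (%, y axis) in the reproducible, pooled, replicate 1 and replicate 2 lists, for all 180 receptor genes, for the 60 genes of each family and for all 13968 protein-coding genes; bars are shares and error bars exact 95% intervals. Receptor genes stood at 3.33%, 15.6%, 24.4% and 12.2%, and all protein-coding genes at 26.2%, 53.7%, 52.5% and 57.3%.

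The Orco peak lay between genes. Orco (FBgn0037324, 3R, 5407183 to 5412406, minus strand) has 2 annotated starts, and the summit at 5413119 lay 713 bp upstream of the distal one. The peak spanned 5412937 to 5413300 and ranked 3119 of 5636 by signal value (206). It overlapped a peak of each replicate. The replicate 1 peak had a signal value of 66.7, rank 3790 and a −log10 q of 3.90, and the replicate 2 peak had 143, rank 2826 and 4.11. Each of these −log10 q values is the maximum of its list and is shared with other peaks. All reproducible peaks likewise have the same value, 4.09. The next gene on that side, CG14669, starts 2121 bp from the Orco start and is read in the opposite direction. Replicate 1 held 3 more summits within 1 kb of an Orco start, at ranks 7824, 8950 and 15518, with signal values of 37.6, 34.0 and 24.0. The peak of rank 7824 overlapped the reproducible peak and the same replicate 2 peak. The peak of rank 8950 overlapped a pooled peak in an Orco intron, of rank 25574, and no replicate 2 peak. The peak of rank 15518 overlapped neither a pooled nor a replicate 2 peak.

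The highest peak within 1 kb of a receptor start was that upstream of Or88a, a receptor for fatty acid methyl esters in the adult antenna. Its summit (3R, 14108802, rank 946, signal value 474) lay 643 bp upstream of Or88a and 481 bp upstream of CG12402, which is read away from it on the other strand. Signal values there were 141 in replicate 1 (rank 1404) and 329 in replicate 2 (rank 810). A second pooled summit lay in the coding exon of Or88a itself, 88 bp from its start, but at rank 29383 of 30000. The summit counted for Or9a (X, 10460636, rank 3450, signal value 191) lay 960 bp upstream of Or9a and 100 bp upstream of the divergent gene Neb-cGP. Its signal values were 68.5 in replicate 1 (rank 3653) and 122 in replicate 2 (rank 3482).

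Both gustatory receptor peaks sat beside a neighbour on the opposite strand. Gr32a acts in the detection of bitter compounds and of cuticular pheromones. Its summit (2L, 11113246, rank 2658, signal value 235) lay 768 bp upstream of Gr32a and 185 bp upstream of Idua, the gene of a lysosomal iduronidase. This peak was present in replicate 2 (signal value 178, rank 2117) but overlapped no replicate 1 peak, and the nearest replicate 1 summit was 6407 bp away. Gr64a is a sugar receptor at the head of a cluster of 6 Gr64 genes. Its summit (3L, 4025930, rank 4129, signal value 164) lay 839 bp upstream of Gr64a and 81 bp inside the 5′ untranslated region of CG11594. Signal values there were 57.1 in replicate 1 (rank 4606) and 112 in replicate 2 (rank 3882).

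The reproducible summits that could be shown with their sequence lie outside untranslated regions, and 101 bases around each are given here on the plus strand of dm6, with the middle base at the summit and every E-box (CANNTG) in capitals. They show what sequence lay under the peaks counted for Orco, Or88a, Gr32a and Or9a.
Orco, chr3R:5413069-5413169: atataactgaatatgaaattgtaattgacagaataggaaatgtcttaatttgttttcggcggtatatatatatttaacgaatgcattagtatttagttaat
Or88a, chr3R:14108752-14108852: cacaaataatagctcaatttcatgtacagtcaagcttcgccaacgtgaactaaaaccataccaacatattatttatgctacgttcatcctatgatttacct
Gr32a, chr2L:11113196-11113296: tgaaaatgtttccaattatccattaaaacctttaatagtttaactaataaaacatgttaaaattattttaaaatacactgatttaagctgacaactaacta
Or9a, chrX:10460586-10460686: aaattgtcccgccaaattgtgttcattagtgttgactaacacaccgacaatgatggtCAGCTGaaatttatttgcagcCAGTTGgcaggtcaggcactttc
The Orco, Or88a and Gr32a windows hold no E-box, and the Or9a window holds 2, both on the side of Neb-cGP. The windows around the Gr64a and Ir60e summits, which reach into untranslated regions and are not printed, hold 2 and 1, so that 3 of the 6 windows hold an E-box. An E-box on either strand was in 33.9% of the 5636 windows of this length around reproducible summits. G and C made up 23.8% of the Orco window, 34.7% of the Or88a window, 20.8% of the Gr32a window and 43.6% of the Or9a window, beside a median of 31.7% over all reproducible windows (quartiles 25.7% and 38.6%).

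The ionotropic receptor Ir60e had the reproducible summit nearest to any receptor start, 293 bp upstream (2R, 24531565, rank 4456, signal value 154). That summit lay 29 bp from the nearest of the 4 starts of CG13585, which is read in the opposite direction. Signal values were 58.3 in replicate 1 (rank 4475) and 105 in replicate 2 (rank 4213). A second pooled summit, 873 bp from Ir60e, lay 33 bp from another CG13585 start at rank 6704. All 6 reproducible summits were upstream of the receptor, 5 between genes and 1 in the 5′ untranslated region of CG11594. None lay in a receptor gene.

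**Figure D2:**
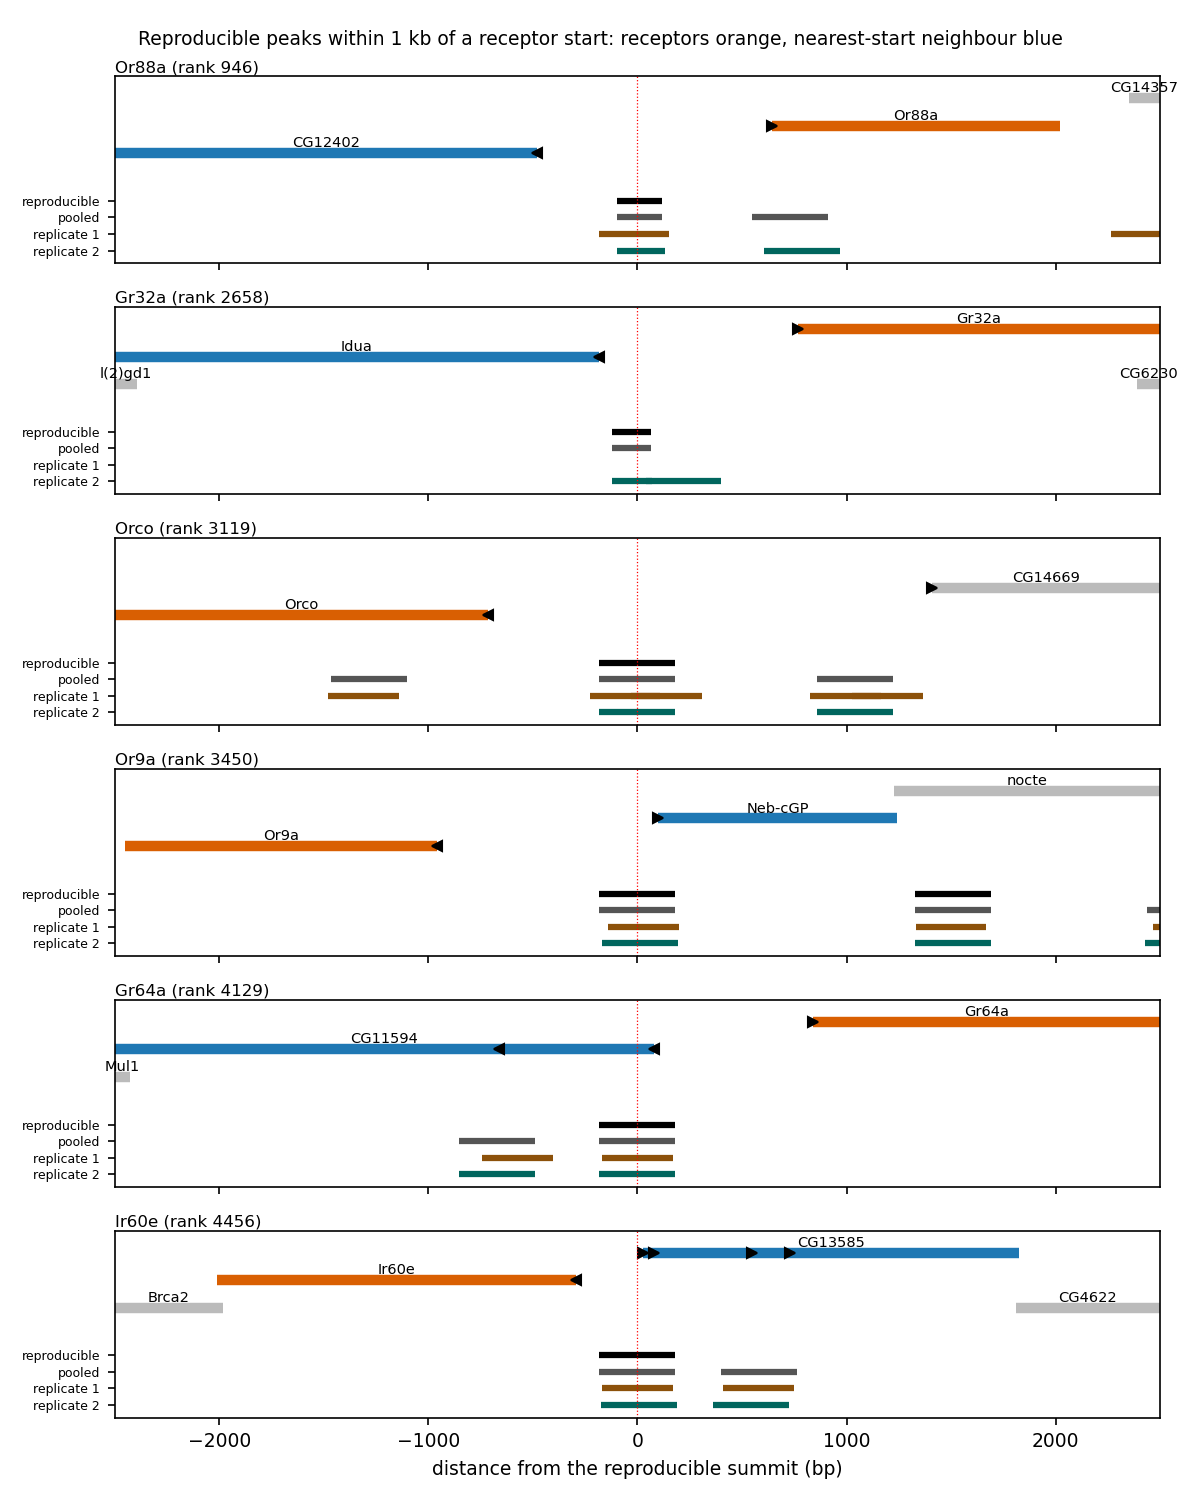
The 6 reproducible peaks within 1 kb of a receptor start, each centred on its summit (x axis, distance from the summit in bp); thick bars are protein-coding genes (receptors orange, the neighbour with the nearest start blue, others grey), arrowheads mark starts and point in the direction of reading, and the lower bars are the peaks of the 4 lists. The Gr32a peak has no replicate 1 peak under it, and in the Orco panel alone no other gene has a nearer start, with the Orco start 713 bp away.

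The 1 kb limit fell between receptor genes at 960 and 1350 bp, a step much like that from Ir60e (293 bp) to Or88a (643 bp). The members just inside were Gr64a at 839 bp and Or9a at 960 bp, and those just outside were Gr89a at 1350 bp and Gr39b at 1367 bp. Within 500 bp, Ir60e alone had a reproducible summit (1 of 180, 0.556%), against 22.6% of all protein-coding genes. Within 2 kb, 12 receptor genes had one (6.67%, interval 3.49 to 11.4), against 32.1% of all protein-coding genes. Of the 6 summits at 1 to 2 kb, 5 had their nearest start in another gene. Those of Or85f (nearest start CG34117, 90 bp away), Gr39b (CG8665, 154 bp) and the co-receptor gene Ir76b (CG14187, 308 bp) lay between genes. Those of Gr5a and Ir94c lay in introns of Tre1 and CG42390. The exception was Gr89a, which held the nearest start, 1350 bp away, to an intergenic summit of rank 709 with a signal value of 575 (3R, 16497609). Gr89a (16497817 to 16498959) is on the minus strand, so this summit lay downstream, past the 3′ end of the gene. Orco and Gr89a were thus the receptor genes that held the nearest start to a reproducible summit within 2 kb.

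**Figure D3:**
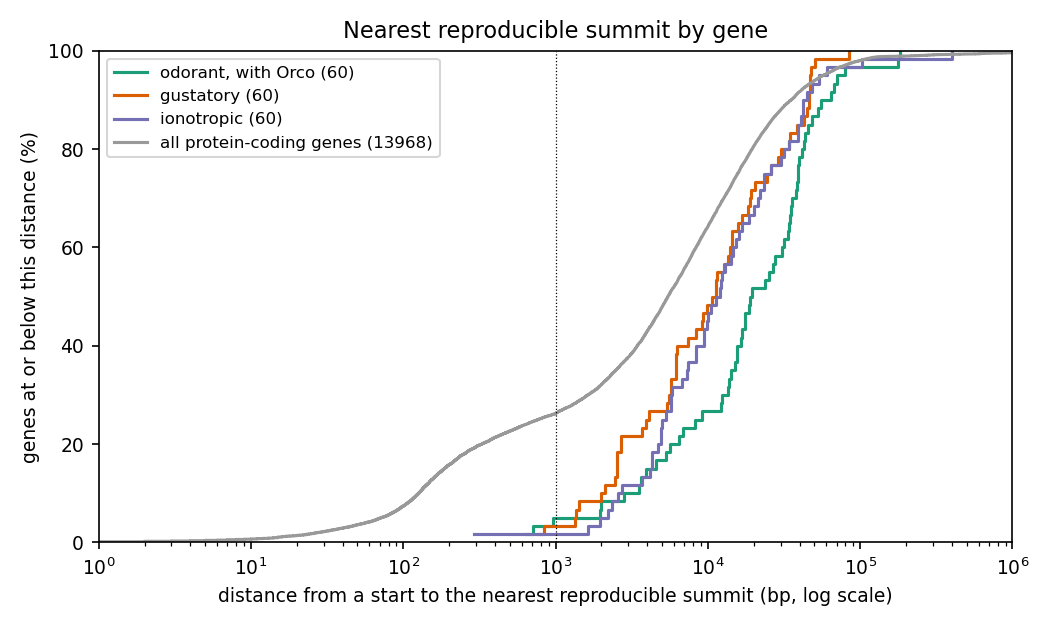
Distance from a start to the nearest reproducible summit (x axis, bp, log scale) as the cumulative share of genes (y axis, %), for the 60 genes of each receptor family and all 13968 protein-coding genes; the dotted line marks 1 kb. The median distance was 19212.5 bp for odorant, 10976.5 bp for gustatory and 11636.5 bp for ionotropic receptors, and 5462 bp for all protein-coding genes.

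The median distance to a peak was larger for receptor genes in every list. The median distance from a receptor gene to the nearest reproducible summit was 14089.5 bp, against 5462 bp over all protein-coding genes. In the pooled list the medians were 4890.5 bp for receptors and 664.5 bp for all protein-coding genes. In the replicate 1 list they were 2977 bp and 818 bp, and in the replicate 2 list 6292 bp and 415.5 bp, in the same order.

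Receptor genes also had neighbours at a larger distance and more often a single start. The nearest start of another protein-coding gene was 2145.5 bp away at the median for receptors and 1379.5 bp for all protein-coding genes. A single annotated start was present in 167 of 180 receptor genes (92.8%) and in 73.5% of all protein-coding genes. Among receptors with no other gene's start within 2 kb, 1 of 99, Orco, had a reproducible summit within 1 kb (1.01%), against 16.3% of the 5494 protein-coding genes so placed. With another start within 2 kb, it was 5 of 81 receptors (6.17%), against 32.7% of 8474 genes. The receptor share was thus below that of all genes in both settings. The part of start number and spacing in the overall difference was not tested. When only neighbours that are not receptors are counted, 5 of the 45 receptors with such a start within 2 kb had a reproducible summit within 1 kb, and 1 of the other 135.

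The pooled list added peaks of lower rank. A pooled summit lay within 1 kb of a start in 28 of 180 receptor genes (15.6%, interval 10.6 to 21.7), against 53.7% of all protein-coding genes. There were 10 odorant (16.7%), 12 gustatory (20.0%) and 6 ionotropic receptors (10%). With the gene of the nearest start alone counted, it was 20 of 180 receptors (11.1%, interval 6.92 to 16.6), against 44.7% of all protein-coding genes. These genes had 35 pooled summits within 1 kb, of which 22 had a receptor as the nearest start and 13 another gene. Of the 35, 14 had a q of 0.05 or less in the authors' list. With that limit, 14 receptor genes had a pooled summit (7.78%, interval 4.32 to 12.7), against 41.6% of all protein-coding genes.

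Among the pooled peaks near receptors, high and low ones differed in whose start they were nearest to. Of the 10 pooled summits near receptors at ranks up to 10000, 8 had another gene as the nearest start (5 of 6 in the reproducible range and 3 of 4 at ranks 5637 to 10000). At ranks 10001 to 20000 it was 4 of 13, and at ranks 20001 to 30000 it was 1 of 12. The same split by rank is not given here for peaks near all protein-coding starts. Of all protein-coding genes with a summit within 1 kb, 73.3% held the nearest start in the reproducible and 83.3% in the pooled list. The median rank was 19806.5 for the 22 summits with a receptor as the nearest start and 6963 for the 13 with another gene, beside 11161.5 for the 10870 pooled summits within 1 kb of any protein-coding start. Median signal values were 41.3, 104 and 68.4 in the same order. Summits with another gene as the nearest start lay at a median of 82 bp from it. Those with a receptor as the nearest start lay at a median of 454 bp from it. The rule limits the first distance, since the other gene's start had to be nearer than a receptor start within 1 kb.

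**Figure D4:**
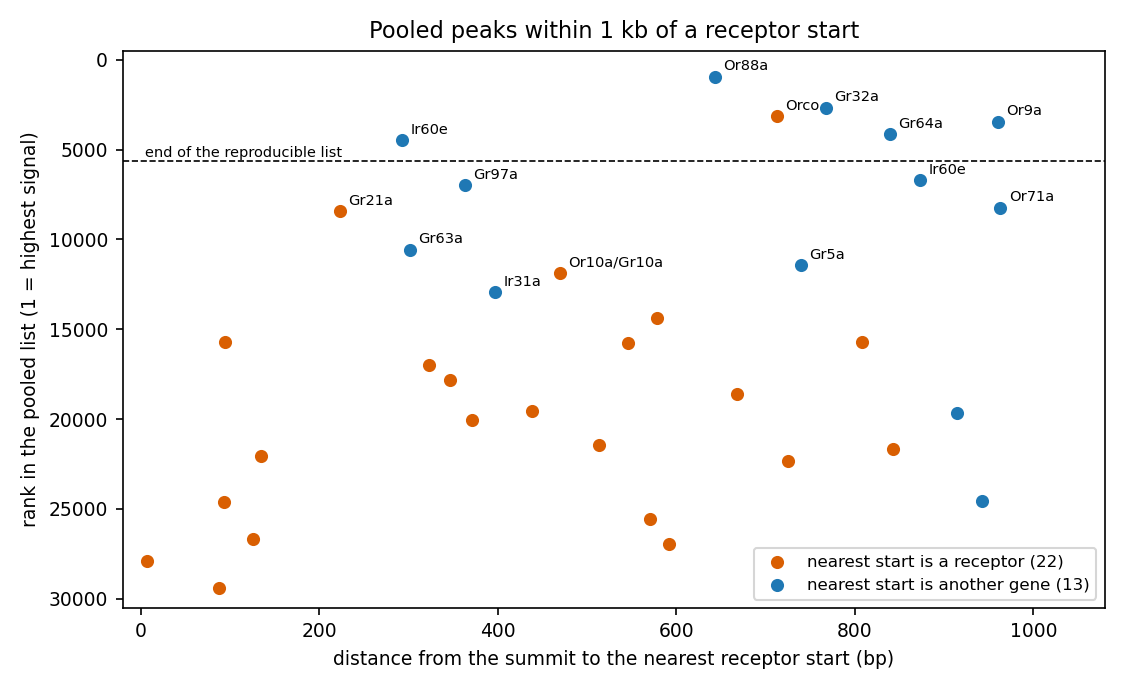
The 35 pooled summits within 1 kb of a receptor start, by distance to the nearest receptor start (x axis, bp) and rank in the pooled list (y axis, 1 is the highest signal value, drawn at the top); colour shows whether a receptor (22) or another gene (13) has the nearest start, and peaks down to rank 13000 are named. Above the dashed line at rank 5636, Orco is the 1 point of 6 with a receptor as the nearest start.

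Among the odorant receptors, the next highest pooled peaks after the reproducible ones were those of Or71a and Or10a. The Or71a summit (3L, 15079410, rank 8224) lay 963 bp from Or71a, a receptor of the maxillary palp, but 15 bp from a start of Plp, which encodes a centrosome protein and spans the site. Or10a, a receptor for methyl salicylate, shares its annotated start with Gr10a (X, 11417422). The summit 470 bp upstream of it (X, 11417892, rank 11853, signal value 64.8) was in both replicates, with signal values of 32.6 and 33.6 and −log10 q of 1.16 and 1.52 in replicates 1 and 2. It counts for both genes. The 2 summits near Or46a, at ranks 19650 and 24547, had CG18011 and CG12917 as their nearest starts. That of rank 19650 nevertheless lay in a coding exon of Or46a itself, 605 bp from the CG18011 start. That of rank 24547 lay in a coding exon of CG12917. The remaining summits, near Or30a, Or85f, Or33a and Or56a, the last a geosmin receptor, ranked from 21464 to 27914.

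Both carbon dioxide receptor genes, Gr21a and Gr63a, had a pooled peak. Within 1 kb, Gr21a was the 1 receptor besides Orco that held the nearest start to a pooled summit of rank 10000 or better. The summit (2L, 781053, rank 8408, signal value 88.5, −log10 q of 2.86) lay between the 2 starts of Gr21a, 223 bp before the downstream one and inside a 5′ untranslated region of the gene. The replicate 1 peak there had a signal value of 18.7, rank 23550 and a −log10 q of 0.280, and the replicate 2 peak had 64.3, rank 7628 and 3.71. Of these, the replicate 2 peak thus stood well inside its list and the replicate 1 peak in its last 10000. The Gr63a summit (3L, 3896905, rank 10562) lay 302 bp from Gr63a and 5 bp from the start of Lamtor4, a subunit gene of a lysosomal signalling complex, with rank 24825 in replicate 1 and rank 10618 in replicate 2.

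Of the 9 sugar receptor genes, Gr64a and Gr5a had a pooled summit within 1 kb, and neither held the nearest start. The Gr5a summit (X, 5679877, rank 11438) lay 740 bp upstream of this trehalose receptor gene and 100 bp inside Tre1, a gene of germ cell migration, and it overlapped a replicate 2 peak (rank 10679) but no replicate 1 peak. The other Gr64 genes were 2675 to 8878 bp from a pooled summit, Gr61a was 3697 bp and Gr43a 15316 bp from one. Gr64b shares its start with Gr64c, and Gr64d with Gr64e, so that these pairs are not independent. Gr97a had 2 pooled summits. That of rank 6963 lay 82 bp from the start of CG5521, and that of rank 14355 lay in the coding exon of Gr97a. Gr93d, Gr39b and Gr22f each held the nearest start to a pooled summit, at ranks 15680, 19566 and 22042, and each of these peaks overlapped a peak of 1 replicate.

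Of the 4 ionotropic co-receptor genes, Ir25a had a pooled summit within 1 kb and Ir8a, Ir76b and Ir93a had none. The Ir25a summit (2L, 4835395, rank 15683, signal value 50.7, −log10 q of 0.984) lay 95 bp upstream of an Ir25a start, inside the 3′ untranslated region of tank. Replicate 2 held an overlapping peak of rank 14003, and the replicate 1 summit within 1 kb, of rank 20563, lay 412 bp downstream of a start and did not overlap it. The nearest pooled summits of Ir76b, Ir93a and Ir8a were 1621, 7506 and 10751 bp away. Ir31a, which acts in the antenna, had a summit of rank 12939 that lay 35 bp from the shared start of LSm-4 and CG17768, and a second of rank 20047 in its own intron. Ir48b, Ir67c and Ir87a each held the nearest start to a pooled summit, at ranks 15786, 17823 and 18581, with −log10 q from 0.705 to 0.972. The Ir67c peak overlapped no peak of either replicate.

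The replicate lists shared fewer than 1 in 2 of the receptor genes of replicate 1. In replicate 1 a summit lay within 1 kb in 44 of 180 receptor genes (24.4%, interval 18.4 to 31.4), against 52.5% of all protein-coding genes. In replicate 2 it was 22 of 180 (12.2%, interval 7.82 to 17.9), against 57.3% of all protein-coding genes. Both replicates had one in 17 receptor genes, which is 38.6% of those of replicate 1 and 77.3% of those of replicate 2. This counts genes, not overlapping peaks. At Or46a, Or45b, Or71a, Gr77a and Ir25a, the replicate 1 and replicate 2 peaks so counted did not overlap each other. Over all protein-coding genes the shared genes were 81.4% of those of replicate 1 and 74.7% of those of replicate 2. By family, replicate 1 and replicate 2 gave 15 and 8 odorant, 18 and 11 gustatory, and 11 and 3 ionotropic receptors. With the nearest start alone counted, replicate 1 gave 36 receptor genes (20.0%), against 43.6% of all protein-coding genes, and replicate 2 gave 14 (7.78%), against 48.4%.

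Most replicate 1 peaks near receptors were low. Within 1 kb of a receptor start, 7 of the 53 replicate 1 summits and 20 of the 28 replicate 2 summits had a q of 0.05 or less. With that limit, 7 receptor genes had a replicate 1 summit (3.89%, interval 1.58 to 7.85), against 32.4% of all protein-coding genes, and 18 had a replicate 2 summit (10%, interval 6.04 to 15.3), against 48.6%. Of the 53 replicate 1 peaks, 16 overlapped a replicate 2 peak (30.2%, interval 18.3 to 44.3), against 71.3% of the 9588 replicate 1 peaks within 1 kb of any protein-coding start (70.4 to 72.2). Of the 28 replicate 2 peaks, 14 overlapped a replicate 1 peak (50%, interval 30.6 to 69.4), against 59.9% of 12240 (59.0 to 60.8). Both replicate lists and the pooled list were made against 1 shared control alignment, so overlap between them is not fully independent.

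Of the 35 pooled peaks near receptors, 14 overlapped a peak in both replicates, 9 in replicate 1 alone, 10 in replicate 2 alone and 2 in neither. Pooled peaks that overlapped a peak of each replicate made up 8 of the 13 whose nearest start was another gene. They made up 6 of the 22 whose nearest start was a receptor. Those 6 were the peaks of Orco, Gr21a, the Or10a and Gr10a start, Gr97a, Gr77a and Gr47b. The 13 and the 22 peaks also differed in median rank, at 6963 and 19806.5. The same counts for pooled peaks near all protein-coding starts are not given here. At Gr77a the replicate 1 and replicate 2 peaks under the pooled peak did not overlap each other. The Gr77a summit (rank 16963) lies in an intron of CG13252 and the Gr47b summit (rank 24602) in the 3′ untranslated region of san, so that each is inside a gene other than the receptor.

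**Figure D5:**
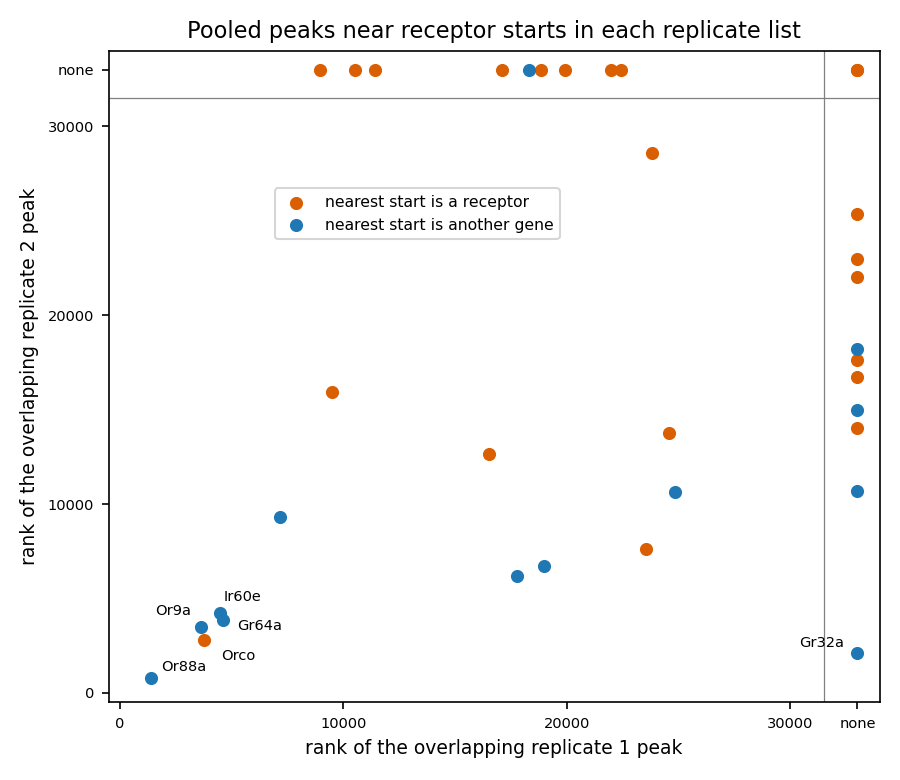
The 35 pooled peaks within 1 kb of a receptor start, by the rank of the highest overlapping peak in the replicate 1 list (x axis) and in the replicate 2 list (y axis); low ranks are high peaks, "none" marks no overlapping peak, and the 6 reproducible peaks are named. Of these 6, 5 lie at rank 4606 or better in both lists, and the Gr32a peak lies at rank 2117 in replicate 2 with no replicate 1 peak.

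Of the 180 receptor genes, 50 had a summit within 1 kb in at least 1 of the 4 lists, and 130 (72.2%) had none, against 32.2% of all protein-coding genes. Replicate 1 was the sole list with a summit for 20 receptors, among them Or47b and Or67d, pheromone receptors of the adult antenna, at ranks 26170 and 25329, and Or35a at rank 10008. Gr39a and Or45b had a summit in both replicates but none in the pooled list, and Ir67c had one in the pooled list alone. By family, 44 odorant, 39 gustatory and 47 ionotropic receptors had none.

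Promoter sequence was compared for base composition and for the DREF site, which is found in many promoters of housekeeping genes, and the E-box. The windows ran from 250 bases before to 50 bases after the distal start of each gene. TATCGATA, on either strand, was in 1 of 180 receptor promoters (0.556%), that of Gr68a, and in 9.36% of all 13968. An E-box was in 83.3% of receptor promoters and 77.3% of all promoters. Median GC content was 39.5% in receptor promoters (quartiles 35.5% and 44.5%) and 37.9% in all (33.2% and 44.2%). None of the 101-base windows around the 6 reproducible summits near receptors holds the DREF site, which is in 1.51% of reproducible windows.

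Other genes of chemosensation were counted in the same way, and the counts are small. Odorant-binding proteins, which carry ligands in sensillum lymph, had a reproducible summit in 2 of 53 genes, Obp99b (rank 1801, 235 bp from its start) and Obp83g (rank 3917, 242 bp), and each held the nearest start. Pooled summits were at 13 of the 53 (24.5%). CheA and CheB proteins had a reproducible summit in 2 of 20 genes, CheB38c, which held the nearest start (735 bp), and CheA56a, whose summit had CG30122 as the nearest start. Taste pickpocket channels had one in 1 of 6, ppk29, with eEF5, a translation factor gene, as the nearest start. The CD36-type genes Snmp1 and Snmp2 had none. Of 8 regulators of olfactory receptor choice, Xbp1 (rank 859, 101 bp) and zf30C (rank 1362, 28 bp) had a reproducible summit, and acj6, pdm3, Eip93F, Fer1, onecut and sim had none. Of 8 listed developmental regulators, including ato, amos and sc, none had a reproducible summit, and svp and pros had a pooled one. The svp summit (rank 10038) lay 474 bp from the start of svp and equally near to one of CG44037. Neither replicate list had a summit within 1 kb of a pros start. These shares stand beside the 26.2% and 53.7% of all protein-coding genes given above for the reproducible and pooled lists.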

How the data were processed

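Chromatin immunoprecipitation sequencing of Fer3-GFP embryos was deposited as narrowPeak lists on dm6. Each peak has a deposited signal value and a deposited −log10 q value from the authors. Per the deposited file descriptions, the replicate lists share 1 control alignment, the pooled list came from both alignments, and the IDR-thresholded list derives from the other 3. Which aligner and caller were used is not given in the sources used here. Starts came from Ensembl release 115 (BDGP 6.54) on 7 chromosome arms, without transposable elements. The arm lengths of the RefSeq Release 6 genome, used for sequence, hold every reproducible peak. Summits are the deposited ones, and 5 of 5636 in the reproducible list lie past the stated peak end. Peaks overlap when they share at least 1 bp. The distance code was tested on simulated data. No test between gene sets was run. The members, the lists and the rule for named genes were chosen with earlier results of these data known. The rule took Orco, every receptor with a reproducible summit within 1 kb and its neighbour, the 6 members of each family with the highest pooled peak, co-receptors, carbon dioxide and sugar receptors, and the members at the 1 kb limit. Other genes named were chosen after their values were seen. Of the listed symbols, 5 odorant-binding protein names had no match in the annotation. Alternatives changed the distance, the peak part, the starts, the peak threshold and the replicate. Software was scipy 1.17.1, pandas 2.3.3, numpy 2.4.6 and matplotlib 3.10.9 under Python 3.11.15.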

Additional observations from a re-analysis of the deposited data

How the results depend on the processing

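Of 38 alternatives to the 6 main counts, 23 stayed within 1.5 times the main value. Distance moved most of the others. Within 500 bp, 1 of 180 receptor genes had a reproducible, 16 a pooled and 12 a replicate 2 summit. Over all protein-coding genes the shares were 22.6%, 47.4% and 51.8% in the same order. Within 2 kb it was 12, 44 and 35 receptor genes, against 32.1%, 61.9% and 64.1% of all protein-coding genes. A non-receptor gene was the nearest start of 1 of 1 reproducible and 4 of 16 pooled summits within 500 bp. Within 2 kb it was 10 of 12 and 31 of 69 summits. With the 2818 highest reproducible peaks, 2 receptor genes had a summit, against 15.7% of all protein-coding genes. Both summits had a neighbour as the nearest start. At a deposited q of at most 0.05, 14 receptor genes had a pooled summit and 7 a replicate 1 summit. Over all protein-coding genes it was 41.6% and 32.4%. The 5636 highest peaks of replicate 1 alone gave 5 receptor genes, against 25.6% of all protein-coding genes. Of their 5 summits near receptors, 4 were nearest to another gene. The 5636 highest peaks of replicate 2 alone gave 6 receptor genes, against 26.4% of all protein-coding genes. Of their 7 summits near receptors, 6 were nearest to another gene. In place of the pooled list, the full replicate 1 list gave 44 receptor genes, against 52.5% of all protein-coding genes. Of its 53 summits near receptors, 9 had a neighbour's start nearest. The full replicate 2 list gave 22 receptor genes, against 57.3% of all protein-coding genes. Of its 28 summits near receptors, 14 had a neighbour's start nearest. In each gene count, the share of receptors was below that of all protein-coding genes. Using any base of the peak or the distal start alone changed no count by over 1.5 times. Depth is unknown, and the lists were cut at 30000 peaks, so absence from a list is not absence of binding. No paired analysis was possible because there is 1 group.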

Other observations

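Peaks inside the receptor genes were also few. A pooled summit lay between the annotated ends of 13 of 180 receptor genes (7.22%), against 33.9% of all protein-coding genes. The median length was 1691 bp for receptor genes and 2164 bp for all. The highest of the 13 were in Gr21a (rank 8408) and Gr97a (rank 14355).

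Of the 7 receptor pseudogenes, 1 had a summit within 1 kb of its start in any list, Ir56e, with a replicate 1 summit 85 bp away. The nearest reproducible summits of the pseudogenes were 3276 bp (Ir51a) to 71689 bp (Or98P) away.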
